A study of Arabidopsis thaliana with 3 samples.

Results

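MYB transcription factors are a large family of plant proteins that bind DNA through imperfect MYB repeats, most of them through a pair of repeats termed R2R3. Close relatives often share a task, such as switching on glucosinolate synthesis, secondary wall and lignin synthesis, flavonoid synthesis, stress responses or stamen and pollen development, and several act in complexes with bHLH proteins. Many are expressed in few cell types or only after a stimulus. The genes described here are all nuclear protein-coding genes of Arabidopsis thaliana whose symbol is MYB followed by a number, which gave 115 of 27444 genes in the RefSeq gene table. A further 10 genes carry a MYB number as a synonym only, among them MYB44 (listed as MYBR1), MYB75 (PAP1) and MYB91 (AS1), and are kept apart.

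The measurement is chromatin immunoprecipitation followed by sequencing of DEK2-YFP, a fluorescent fusion of the chromatin protein DEK2, in seedlings aged 14 days. All plants were dek2-1 mutants with the transgene pDEK2::DEK2-YFP, so the fusion was driven by the DEK2 promoter, and chromatin was recovered with an antibody against GFP. There were 2 immunoprecipitates, each with its own list of peaks, and 1 input sample of the same plants for which no values were used. Peaks therefore describe enrichment over the background modelled by the peak caller, since an immunoprecipitation from plants without the fusion was not analysed here. The replicates are numbered in the labels with no word on whether they were grown apart, and the spread between them may be technical.

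Replicate 1 listed 25742 peaks and replicate 2 listed 13307, and the read depth behind them is unknown. A replicate 1 peak was taken as shared, as 10812 were, when a peak of replicate 2 covered it by 50% or more of whichever was shorter. A gene is said to have one when the replicate 1 summit, the point of highest enrichment, lies inside the gene or within 500 bp of either end. The fold enrichment of a peak is the authors' own value, used here to describe and rank peaks within each list, and for replicate 2 it is that of the overlapping peak. The gene table gives no strand, so the ends of a gene are named by coordinate and starts and ends of transcription are not told apart. Peak coordinates are TAIR10, counted from 1.

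DEK2-YFP peaks common to both replicates were found at a minority of MYB genes. A shared peak was present at 23 of the 115 (20%, 95% Wilson interval 13.7 to 28.2), a share below the 34.2% over all 27444 genes, which lies outside the interval. MYB genes were somewhat short, with a median span of 1763 bp against 2078 bp, but the share among other genes in the same of 20 length bins was also 34.2%, which corresponds to 39.3 of 115. Among genes of 1146 to 1789 bp 10 of 57 MYB genes had a shared peak (17.5%), against 30.8% of all genes there. Among those of 1789 to 2403 bp the count was 9 of 44 (20.5%), against 37.8%. Of the members of 2403 to 3310 bp, 4 of 8 had one, against 41.3% of all genes. The lists are described by counts and intervals, which cover counting error only, and no test was made over them.

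The lower share was seen in each replicate taken alone. In replicate 1 a summit lay inside or within 500 bp of 66 MYB genes (57.4%, 48.3 to 66.0), where the share of all genes was 66.7%. In replicate 2 it did so at 29 (25.2%, 18.2 to 33.9), where the share of all genes was 37.0%. Both upper limits lie below the share of all genes. Of the 92 members without a shared peak, 4 had a summit in each replicate from peaks that did not overlap, 39 had summits in replicate 1 only and 3 in replicate 2 only. The remaining 46 (40%) had no peak of either replicate, against 31.6% of all genes. Over all 27444 genes, 590 had a summit in each replicate without a shared peak, 8331 in replicate 1 only and 468 in replicate 2 only. Enrichment below the authors' threshold would not show in these lists.

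MYB genes had wide gaps to their neighbours. The median gap to the nearest other protein-coding gene was 1211 bp, against 190 bp over all genes, and 64 of 115 (55.7%) had no neighbour within 1000 bp, against 19.5% of all genes. A summit between close genes counts for each of them, and MYB genes had few such peaks: the best shared peak lay near another gene too in 3 of 23 cases (13.0%), against 48.7% of all genes with a shared peak. In the WRKY and NAC transcription factor families, counted below, it did so at 4 of 21 (19.0%) and 12 of 26 genes (46.2%). When only shared peaks near a single gene were counted, 20 MYB genes had one (17.4%, 11.5 to 25.3) and so did 18.9% of all genes, a difference within the interval. That count drops peaks by spacing, and 80.5% of all genes but 44.3% of MYB genes had a neighbour within 1000 bp. It took all genes from 9382 to 5199 and MYB genes from 23 to 20, so the nearness of the shares is partly set by the filter. Among genes with no neighbour within 1000 bp, 12 of 64 MYB genes had a shared peak (18.8%, 11.1 to 30.0) against 26.2%, also within the interval. Among genes with a closer neighbour it was 11 of 51 (21.6%, 12.5 to 34.6) against 36.1%, which lies above the interval. The part that spacing has in the lower share was not tested beyond these counts.

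Shared summits lay outside MYB genes more than within them, as they did at all genes with a shared peak. The best shared summit was inside the gene in 30.4% of the 23 members with one, against 39.9% of all genes with one. Counted over all 115 members, a shared summit was inside the gene in 7 (6.09%, 2.98 to 12.0), against 15.3% of all genes and 16.9 expected from length. That difference includes the lower share of MYB genes with any shared peak. A nearest summit 1 to 250 bp outside was found in 9 members (7.83%, all genes 13.8%) and one at 251 to 500 bp in 7 (6.09%, all genes 5.14%). Farther out the order turned: 13 members (11.3%, all genes 6.61%) had their nearest shared summit at 501 to 1000 bp and 25 (21.7%, all genes 8.82%) at 1001 to 2000 bp. The median distance from a MYB gene to the nearest shared summit was 1644 bp, no greater than the 2045 bp over all genes. The 500 bp limit fell between MYB117, a gene for organ boundaries, with its summit 452 bp outside, and MYB80, a tapetum factor gene, with the nearest shared summit 541 bp outside.

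**Figure D1:**
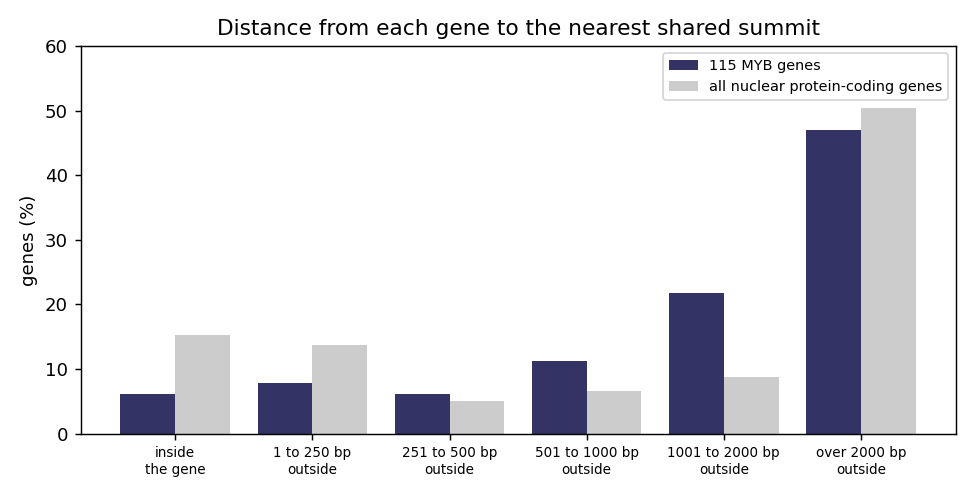
Share of genes (%, y axis) by distance from the gene to the nearest shared summit (x axis) for the 115 MYB genes (dark bars) and all 27444 nuclear protein-coding genes (grey bars). MYB genes have lower bars inside the gene (6.09% against 15.3%) and higher bars between 1001 and 2000 bp (21.7% against 8.82%).

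The 6 genes for glucosinolate factors had 1 shared peak between them, where length gives 2.19. MYB28, MYB29 and MYB76 drive the synthesis of aliphatic glucosinolates, and MYB34, MYB51 and MYB122 that of indole glucosinolates. MYB28 (AT5G61420) had the shared peak, on chromosome 5 from 24688925 to 24689258, at 1.61-fold enrichment in replicate 1 and 1.68 in replicate 2. The replicate 1 summit lay 4 bp outside the end at the lower coordinate and that of replicate 2 lay 202 bp inside the gene. The peak was a weak one, with 90.2% of shared peaks ranked above it by the worse of their ranks in the replicates. The neighbouring genes MYB29 (AT5G07690) and MYB76 (AT5G07700) had no peak of either replicate, and the nearest shared summits lay 9032 and 5809 bp away.

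The indole factor genes had peaks that did not recur at the same place. MYB51 (AT1G18570) had 1 peak in each replicate, at opposite ends of the gene: replicate 1 at 1.46 with a summit 300 bp inside the end at the higher coordinate, and replicate 2 at 1.83 with a summit 19 bp outside the other end. MYB34 (AT5G60890) had 2 peaks in replicate 1, the stronger at 2.06 with a summit 73 bp inside the end at the lower coordinate, and none in replicate 2. At MYB122 (AT1G74080) replicate 1 listed a peak of 1.65 with a summit 98 bp inside, and replicate 2 listed none. Thus 4 of the 6 genes had a replicate 1 peak, close to the 4.32 that length gives. No shared peak had its replicate 1 summit inside any of them, where length gives 0.978.

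Stress factor genes held the most shared peaks among the classes by number, 6 of 21 (28.6%, 13.8 to 50.0) where length gives 7.08. The strongest was at MYB73 (AT4G37260), a relative of MYB44 in abscisic acid and stress responses, on chromosome 4 from 17541256 to 17542191 with 2.63 and 2.60. The replicate 1 summit, 79 bp beyond the gene, is also within 500 bp of HMA1, so the gene it belongs to is not settled. MYB15 (AT3G23250), which acts in cold responses and in defence-induced lignin, had 3.00 in replicate 1, the highest replicate 1 value of any member, but 1.68 in replicate 2, on chromosome 3 from 8308855 to 8309549 with the replicate 1 summit 154 bp outside the gene. MYB30 (AT3G28910), an activator of hypersensitive cell death, had 2.18 and 1.65 on chromosome 3 from 10910504 to 10911478, with summits 72 and 79 bp outside.

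The other 3 stress genes with a shared peak ranked below these by the worse of their ranks in the replicates. At MYB41 (AT4G28110), a gene induced by osmotic stress, the values were 2.33 and 1.49, with the summit 357 bp outside. MYB94 (AT3G47600), an activator of wax synthesis in drought, had 1.67 and 2.03 with the summit 409 bp outside. MYB70 (AT2G23290), another MYB44 relative, was the only one of the 6 with its summit inside the gene, 287 bp from the end, and had 1.42 and 2.30. Of the close relatives of MYB70 and MYB73, MYB77 had 2 replicate 1 peaks of 1.32 and 1.24 and MYB44 had 2 with a best value of 2.09, and neither had a replicate 2 peak.

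Of the remaining stress genes 9 had peaks in replicate 1 only and 6 had none in either replicate, where length gives 6.46. Of all 27444 genes, 8331 had a summit in replicate 1 only. MYB108, linked to susceptibility to Botrytis, and MYB96, the drought factor close to MYB94, were among the 9 with replicate 1 peaks only, with best values of 1.80 and 1.83. MYB13 and MYB2, the latter a drought and abscisic acid factor gene, each had 3 replicate 1 peaks and none in replicate 2. MYB112 and MYB116 were the longest without a peak, and MYB60, a guard cell factor gene, and MYB72, which acts in iron deficiency, had none either.

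Wall factor genes had 3 shared peaks among 15 (20%, 7.05 to 45.2), where length gives 5.06. MYB20 (AT1G66230), an activator of lignin synthesis, had 2.37 and 1.99 on chromosome 1 from 24676683 to 24677365, with the replicate 1 summit 76 bp outside and that of replicate 2 42 bp inside the gene. MYB7 (AT2G16720), a repressor of phenylpropanoid genes, had 1.78 and 2.34 on chromosome 2 from 7255597 to 7256173, with summits 494 and 424 bp inside. MYB61 (AT1G09540), which acts in lignin and seed mucilage, had 1.61 and 2.16 on chromosome 1 from 3085922 to 3086437, with the replicate 1 summit 234 bp inside. The master switches of the secondary wall, MYB46 and MYB83, had no peak of either replicate, and nor did MYB42, MYB52, MYB58, MYB69 and MYB85. For these 7 wall genes without a peak, length gives 4.61.

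Wall genes with replicate 1 peaks only numbered 5 of 15, against 8331 of all 27444 genes. MYB4 (AT4G38620) and MYB32, relatives of MYB7 that also repress phenylpropanoid genes, had best values of 2.01 and 1.90. MYB54, chosen here after its values were seen, had a replicate 1 peak of 2.80 with a −log10 q of 25.2, a summit 405 bp outside the gene and no counterpart in replicate 2. Its value is above all but 2 of the replicate 1 values at members with a shared peak, those of MYB15 and MYB1.

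Pollen and anther factor genes had 1 shared peak among 13 (7.69%, 1.37 to 33.3), where length gives 4.67 and other genes of the same length reach 35.9%. It belonged to MYB33 (AT5G06100), a GAMYB-like gene of anther and seed, and was the third in rank of all members. It lay on chromosome 5 from 1837220 to 1838161 with 2.68 and 2.38, with summits 293 and 149 bp outside the gene. Its closest relative MYB65 (AT3G11440) had a replicate 1 peak of 1.58 only, and the nearest shared summit lay 810 bp from the gene.

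At 2 of the 13 pollen genes both replicates had summits without a shared peak, against 590 of all 27444 genes. MYB26 (AT3G13890), needed for wall thickening in anthers, had a replicate 1 peak of 2.38 with a summit 79 bp inside one end and a replicate 2 peak of 1.64 beyond the other. MYB120 (AT5G55020), a pollen tube factor gene, had 1.43 and 2.12 from adjoining peaks, the replicate 2 summit lying at the limit of 500 bp. MYB21, a jasmonate-dependent stamen factor gene, had a replicate 2 peak of 1.75 deep inside the gene but no peak in replicate 1. MYB24, MYB97, MYB80, MYB81 and MYB104 had no peaks at all, which made 5 genes where length gives 3.71. With 1000 bp in place of 500 bp, 4 pollen genes had a shared peak, where length gives 5.49. Replicate 1 alone had summits at 7 of the 13 (53.8%, 29.1 to 76.8), where length gives 9.08, and replicate 2 alone at 4 (30.8%, 12.7 to 57.6), where length gives 5.05. Both intervals hold the share expected from length (69.8% and 38.8%). Near no other gene 1 pollen gene had a shared peak, where length gives 2.66.

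**Figure D2:**
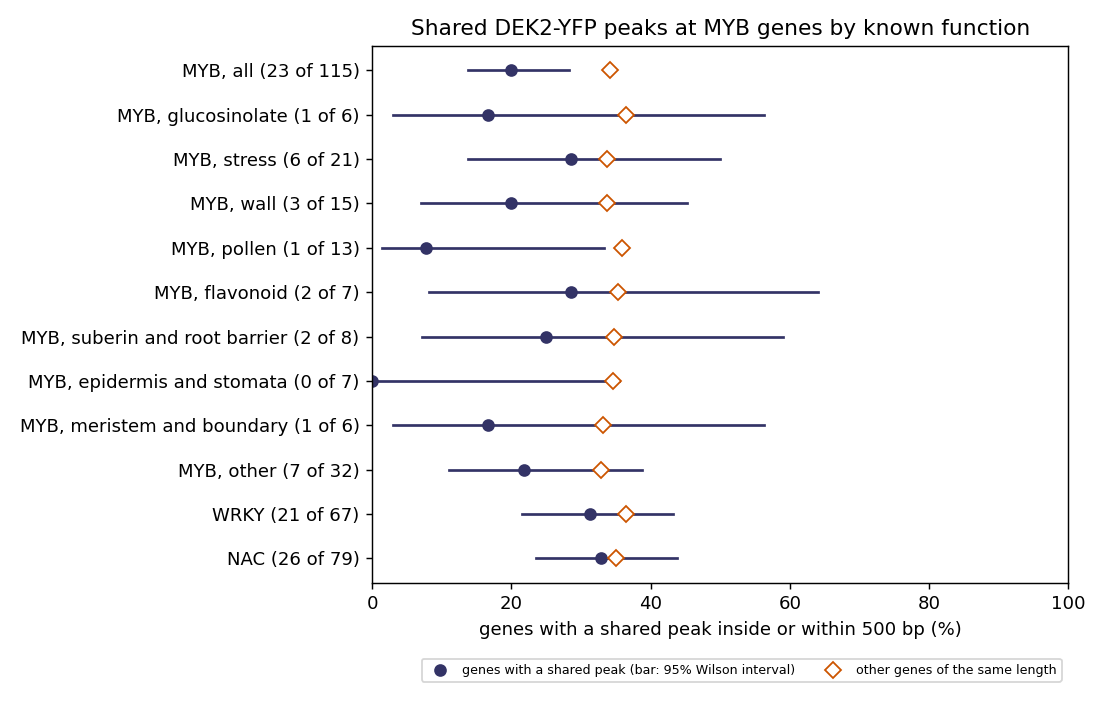
Share of genes with a shared peak (%, x axis) by known function of the MYB genes and in the WRKY and NAC families (y axis, with counts); dots with bars are the share and its 95% Wilson interval, and diamonds the share of other genes of the same length. Every dot lies left of its diamond, and the bar ends short of it for all MYB genes (20% against 34.2%) and for pollen (7.69% against 35.9%), whose count was 4 or 7 of 13 with a single replicate.

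Outside these 4 classes, the strongest shared peak of the family was at MYB5 (AT3G13540), a regulator of seed coat and trichome differentiation. It lay on chromosome 3 from 4419256 to 4419983 with 2.73 and 2.65, and 2.90% of the shared peaks ranked above it. Its summits lay 411 and 394 bp outside the gene, and the peak is also within 500 bp of MAPKKK7. The flavonol gene MYB111 (AT5G49330) had 1.80 and 2.33 from a peak 1176 bp inside the gene, the only member whose best shared summit lay over 500 bp inside. The flavonol genes MYB11 and MYB12 had no shared peak, and the anthocyanin genes MYB90, MYB113 and MYB114, which are neighbours and alike in sequence, had 1 replicate 1 peak among them, at MYB113. The treatment of reads that match several places is not known, which bears on such copies.

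Among genes of suberin and the root barrier, 2 of 8 had a shared peak (25%, 7.15 to 59.1), where length gives 2.78. MYB36 (AT5G57620), which directs the Casparian strip of the root endodermis, had 2.68 and 1.99 on chromosome 5 from 23336762 to 23337369, with summits 377 and 351 bp outside. MYB9 (AT5G16770), a suberin factor gene, had 1.83 and 2.08 from a peak that also lies near DOT2. None of the 7 genes of epidermis and stomata had one (0%, 0 to 35.4), where length gives 2.42 and the interval holds the 34.2% of all genes. Among them were MYB0 and MYB23, which specify trichomes, and MYB66, which patterns root hairs, none with a peak in either replicate. Of 6 genes for meristems and boundaries 1 had a shared peak, where length gives 1.99. It was MYB117 (AT1G26780), with 1.64 and 1.95, and its replicate 2 summit lay 730 bp outside the gene.

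The 32 members placed in no class held 7 of the genes with a shared peak (21.9%, 11.0 to 38.8), where length gives 10.5. MYB6 (AT4G09460) was the only member with a pair of shared peaks, 1 of the 23 with any (4.35%). Of all genes with any, 17.2% had over 1, a share not matched for gene length or spacing. The peaks of MYB6 are the following. They lay 1 at each end of the gene, the better on chromosome 4 from 5992723 to 5993230 with 2.61 and 2.20 and the other with 1.90 and 1.99. MYB25 (AT2G39880) had 2.73 and 2.20 with the replicate 1 summit 5 bp inside the gene, and MYB1 (AT3G09230) had 2.86 and 2.11 with the summit 174 bp outside. MYB3 (AT1G22640), a repressor of phenylpropanoid synthesis, had 2.23 and 2.09 with the replicate 1 summit 18 bp outside and that of replicate 2 283 bp inside. It was left out of the wall class, although the phenylpropanoid repressor genes MYB4, MYB7 and MYB32 were placed there. The wall count depends on that choice. MYB118, MYB59 and MYB47 made up the rest, with 2.06 and 1.99, 1.98 and 2.08, and 2.16 and 1.75.

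**Figure D3:**
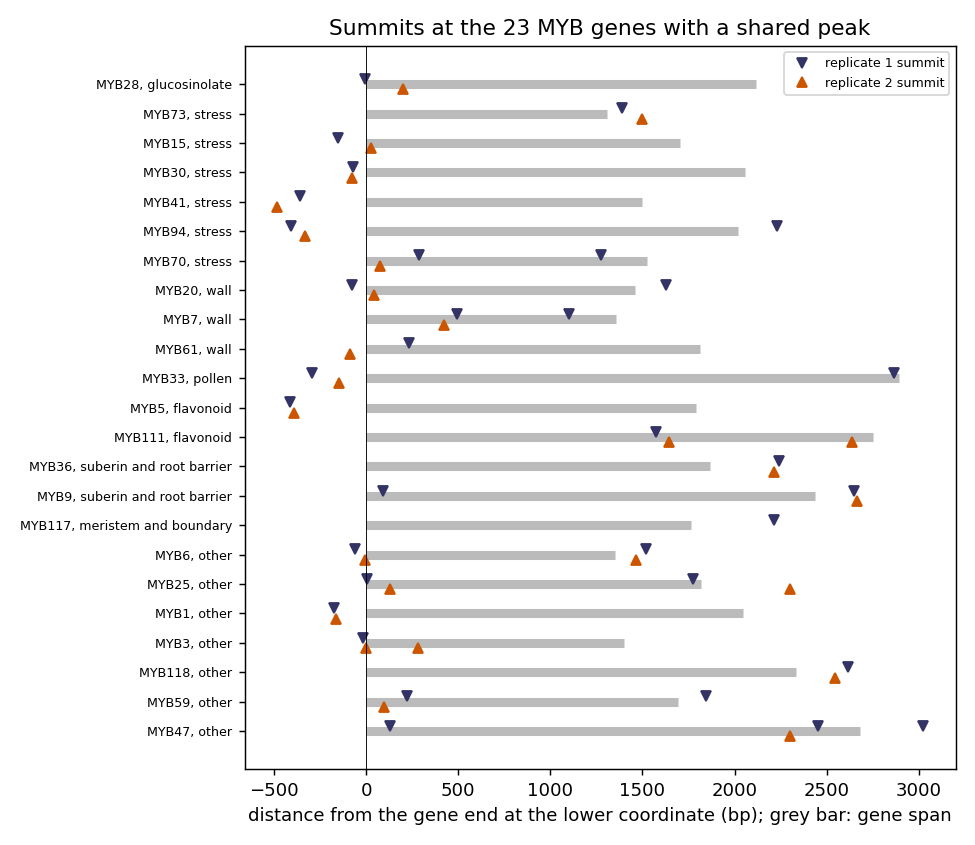
Summits of replicate 1 (downward triangles) and replicate 2 (upward triangles) at the 23 MYB genes with a shared peak, 1 gene a row with its class; the x axis is the distance in bp from the gene end at the lower coordinate and the grey bar is the gene span. Shared summits sit at or beyond a gene end in most rows, and MYB111 has one 1176 bp inside.

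Where a shared peak was present, its strength was close to that at other genes. The best shared peak of the 23 members had a median fold enrichment of 2.18 in replicate 1 (range 1.42 to 3.00) and 2.08 in replicate 2 (1.49 to 2.65). The medians over all 9382 genes with a shared peak were 2.12 and 2.04. When the shared peaks were put into 4 equal groups by rank, 7 members fell in the strongest group, 4 and 5 in the middle groups and 7 in the weakest. MYB5, MYB73, MYB33, MYB6, MYB25, MYB1 and MYB3 made up the strongest. Of the 24 shared peaks at members, 16 lay nearer the end at the lower coordinate and 8 nearer the other. That split was not counted over all genes, and without strand no positional bias is read from it. Members with replicate 1 peaks only had a median best value of 1.70, close to the 1.74 of all such genes.

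**Figure D4:**
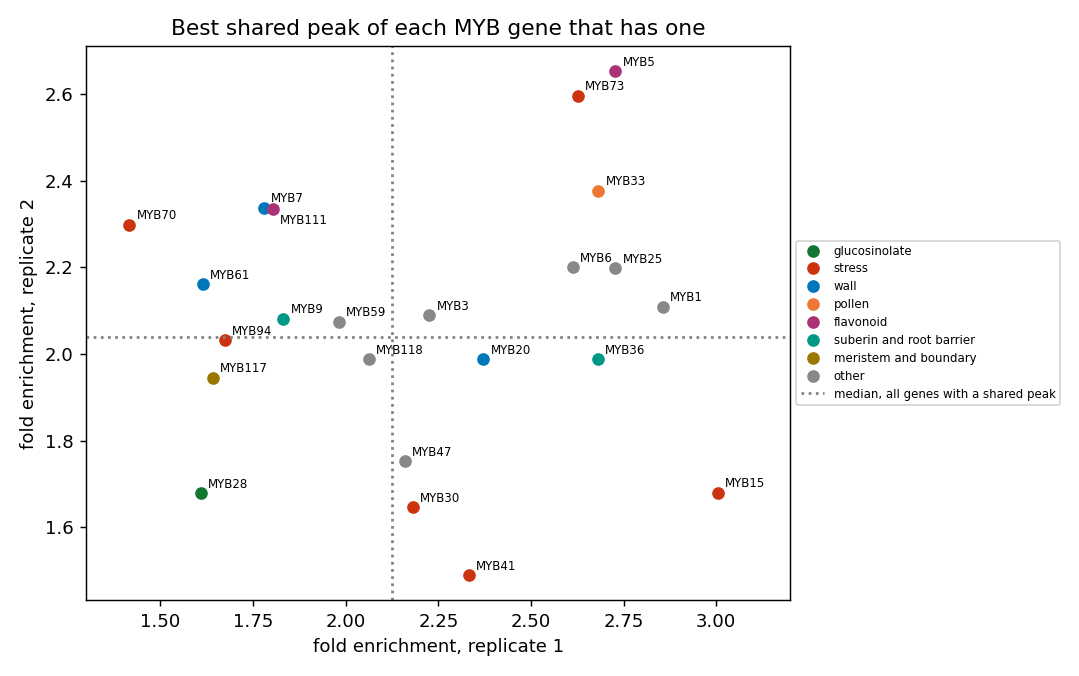
Fold enrichment of the best shared peak in replicate 1 (x axis) and of the overlapping peak in replicate 2 (y axis) for each of the 23 MYB genes with one, coloured by class; dotted lines are the medians over all genes with a shared peak (2.12 and 2.04). MYB5, MYB73 and MYB33 are high in both replicates, while MYB15 is highest in replicate 1 (3.00) and low in replicate 2 (1.68), and MYB70 is lowest in replicate 1 (1.42) at 2.30 in replicate 2.

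A pair of other large transcription factor families was counted the same way. Of 67 genes named WRKY with a number 21 had a shared peak (31.3%, 21.5 to 43.2), where genes of their length had 36.5%. Of 79 genes named NAC with a number 26 had one (32.9%, 23.6 to 43.9), against 35.1%. The interval of each overlaps that of the MYB genes, and no test set the families apart. Of the 10 genes with a MYB number as a synonym, the stomatal gene FLP (MYB124) had a shared peak with 1.71 and 1.90, while PAP1, TT2 and AtMYB103 had no peak in either replicate.

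Genes for MYB partners and genes of the glucosinolate and wall pathways were also counted. Of 10 genes for bHLH and WD40 partners and single-repeat inhibitors 6 had a shared peak (60%, 31.3 to 83.2), where length gives 3.84. They were MYC2 (2.99 and 2.66), MYBL2, an inhibitor of flavonoid synthesis (3.00 and 2.63), CPC, an inhibitor of trichome fate (2.70 and 2.45), MYC3, EGL3 and TRY. The peak of MYC2 also lies near AT1G32630 and that of MYBL2 near LPR2. GL3, TTG1 and MYC4 had replicate 1 peaks only and TT8 had none. Glucosinolate synthesis, transport and myrosinase genes had 8 of 24, where length gives 9.46. They were led by CYP83B1 (2.84 and 2.42), UGT74B1 (2.56 and 2.52) and the transporter gene GTR1 (2.54 and 2.75). The myrosinase genes TGG1 and TGG2 had no peak of either replicate. Genes of the secondary wall and lignin had 10 of 23, where length gives 9.32. They were led by the xylan gene IRX14 (2.93 and 2.25), the cellulose synthase gene CESA4 (2.05 and 2.20) and the lignin gene C4H (2.28 and 1.93). This list also holds the wall factor genes NAC012, NAC101, NST1, VND7 and KNAT7, of which NAC101 had a shared peak. The named peaks of CYP83B1, UGT74B1, CESA4 and C4H each lie near another gene too, and those of GTR1, IRX14 and CPC do not.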

How the data were processed

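The tools named in the submitters' processing notes, without roles or settings, are MACS2 2.2.7.1, SAMtools 1.9, Bowtie2 2.3.5 and Trimmomatic 0.38; the build named is TAIR10. The authors deposited a separate peak list for each of 2 immunoprecipitates. Each deposited peak has a whole-number score made from its q-value, a fold enrichment (a ratio to the modelled background) and −log10 p and q values, the last at least 1.31 in replicate 1 and 1.30 in replicate 2. The files have no header, and columns follow the narrowPeak format. Read depth is unknown, so numbers of peaks are not comparable between replicates.

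Gene names and spans came from a RefSeq table of TAIR10.1, which is not named as the build of the files. The share of shared summits inside protein-coding genes was lowest with no shift (41.3%) and higher when summits were moved by 100 bp or more in either direction. Shares have 95% Wilson intervals. The share expected from length is that of other genes in the same of 20 equal-sized length bins. All 149 loci of the lists matched the table, 128 of them by symbol too. Members, classes and lists were chosen with earlier results of these data known. Named are all glucosinolate MYB genes, the best 4 with a shared peak and the 2 longest without a peak in the other classes of the rule, the best 2 of further classes, the best 5 over all, those next to the 500 bp limit and the best 3 of each pathway list; others were named after their values were seen. The design planned no test, and none was made. The code (Python 3.11.15, pandas 2.3.3, SciPy 1.17.1) was checked on simulated peaks and genes. No sequences are shown, and none were used here.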

Additional observations from a re-analysis of the deposited data

How the results depend on the processing

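The count of 23 MYB genes with a shared peak moved with the definition of a peak and of its place, while it stayed below the number expected from length in all 12 alternatives. It was 7 for summits inside the gene only (16.9 expected), 36 within 1000 bp (46.8), 13 with overlap of 50% of both peaks (19.2) and 7 when both replicates had to reach a −log10 q of 5 (14.4). Leaving out a replicate gave 29 to 66 (without replicate 1, 42.6 expected; without replicate 2, 77.8). Counting only shared peaks near no other gene, an alternative chosen after seeing the data, gave 20 with 21.6 expected. That expected number is matched for length and not for spacing. The length standard of 34.2% was 34.2% with 10 bins and 34.3% with 40.

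Class counts are small and moved as well. Glucosinolate genes, 1 in the main count, were 0 for summits inside only and at the stricter q, 2 when a summit of each replicate within 500 bp was asked for, and 2 to 4 with a replicate left out. Stress genes, 6 in the main count, were 1 inside only, 2 with overlap of both peaks, 1 at the stricter q, 6 to 15 with a replicate left out, and 9 within 1000 bp (8.48 expected). Wall genes, 3 in the main count, were 7 within 1000 bp (6.05 expected), 1 with overlap of both peaks, 1 at the stricter q and 3 to 8 with a replicate left out. Pollen genes, 1 in the main count, were 0 inside only, 0 within 250 bp, 4 within 1000 bp, 0 with overlap of both peaks, 2 with the replicate 2 summit, 3 with a summit of each replicate and 4 to 7 with a replicate left out. Stress and wall genes thus exceeded the number expected from length within 1000 bp, as did stress genes in replicate 1 alone (15, 14.1 expected) and both classes for shared peaks near no other gene (stress 5, 3.81 expected; wall 3, 2.81 expected). That last setting gave 1 glucosinolate gene (1.22 expected) and 1 pollen gene (2.66 expected). Its expected numbers are matched for length and not for gaps to neighbours, so counts above them are not read as an excess. The cause was not tested. No paired analysis was possible because the labels name a single group of immunoprecipitates. Unknown depth limits what the absence of a peak can show, above all in replicate 2.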
